A study of Mus musculus with 6 samples.

Results

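The genes described here are 10 members of the MHC class I antigen presentation route: the heavy chains H2-K1 and H2-D1, their light chain B2m, the peptide transporter genes Tap1 and Tap2, the loading factor Tapbp, the inducible proteasome subunits Psmb8, Psmb9 and Psmb10, and the transactivator Nlrc5. Members were found by gene symbol in the FPKM table of each of 6 libraries, and where a symbol repeated, the annotated row with the highest mean was to be taken. Of the 10 members, 9 had a row, each a single one, among 25001 loci. Tapbp had no row with its symbol and is treated separately.

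Class I molecules hold short peptides from proteins made inside the cell and show them to CD8 T cells. The peptides are cut by the proteasome, carried into the endoplasmic reticulum by the transporter formed from TAP1 and TAP2, and loaded with the help of tapasin, the product of Tapbp, onto a heavy chain paired with beta-2 microglobulin. Interferon raises most genes of the route, partly through NLRC5, which acts at class I promoters together with proteins bound to them. In the thymus, epithelial cells show self peptides on these molecules to developing T cells.

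RNA sequencing covered mouse thymoma cells, called CONT cells in the labels, and SP2bKD cells, a derived clone meant to be low in SPPL2b, the protease that frees the intracellular domain (EICD) of epithin/PRSS14. There was 1 library in each of 6 conditions. The CONT cells carried the empty pSUPER vector and received DMSO or PMA, the SP2bKD cells received the same, and further SP2bKD cells were transfected with GFP alone or with GFP plus a Flag-tagged EICD and sorted for GFP. PMA, a phorbol ester that activates protein kinase C, was given at 1 µM for 2 h to cells kept without serum for 2 h, and the DMSO controls were kept in the same way. The sample labels give an siRNA for the knockdown, while the methods describe a stable shRNA clone. The transfected cells differ from the other SP2bKD cells in transfection, sorting, serum and DMSO at once, and these cannot be told apart. EICD came from a plasmid and not from cleavage of the cells' own protein.

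Since each condition had 1 library, no difference between conditions could be tested, and none carries an SD or a p-value. Values are FPKM, fragments per kilobase of transcript scaled to the size of the library, so they can be set side by side between genes. A gene is called here when its FPKM differed more than 2-fold and was at least 1 in at least 1 of the libraries compared. Depth, estimated from the lowest values, was 24900000 to 29200000 fragments in a library. The 95% intervals given are exact counting intervals from estimated fragments and leave out the spread between cultures. The libraries labelled SP2bKD did not have less Sppl2b RNA, with 13.4 FPKM against 9.90 in CONT cells with DMSO and 9.37 against 6.86 with PMA, so the line names below are those of the labels. The paper tested its clones by qPCR of SPPL2b mRNA, presents them as knocked down, and reports less EICD in them after PMA. The FPKM here are of the same mRNA and were not lower, from 1 library each. They do not measure EICD, and the reason for the difference from the paper was not tested. St14, the gene of epithin/PRSS14, was at 615 FPKM in the GFP plus EICD library and at 69.6 to 105 in the others. The EICD plasmid carries part of this gene, so plasmid and cellular transcripts cannot be told apart in that value. All 8 markers listed for thymic epithelium were at 1 FPKM or more in all 6 libraries, Krt5 at 3851 to 10705, while Cd3e and Cd4 of the T lineage and Adgre1 of macrophages were listed at 0. Of the other marker lists, Rag1, Cd68, Csf1r and Cd14 were at 1 FPKM or more in all 6 libraries, and Vim in the untransfected SP2bKD libraries only, while the 3 B lineage markers were below 1 FPKM throughout.

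The promoter sequences are shown with matches to elements through which NLRC5, interferon and NF-kappaB are known to reach class I genes. They are the 200 bases before the RefSeq start on GRCm38.p6, printed on the gene's own strand. H2-K1 lies at chr17:34000348-34000547 on the minus strand, H2-D1 at chr17:35262894-35263093 on the plus strand, B2m at chr2:122147487-122147686 on the plus strand and Tap1 at chr17:34187356-34187555 on the plus strand. Capitals mark the NF-kappaB consensus, the interferon response type motif, the CRE core TGACG, the CCAAT box on either strand (CCAAT or ATTGG) and TATAA on either strand. In the printed bases of Tap1 only TGACG is marked.
H2-K1: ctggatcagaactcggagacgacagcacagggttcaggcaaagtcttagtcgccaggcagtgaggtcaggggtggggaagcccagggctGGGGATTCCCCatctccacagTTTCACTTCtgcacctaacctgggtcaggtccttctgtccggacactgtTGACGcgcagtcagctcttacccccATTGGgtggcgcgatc
H2-D1: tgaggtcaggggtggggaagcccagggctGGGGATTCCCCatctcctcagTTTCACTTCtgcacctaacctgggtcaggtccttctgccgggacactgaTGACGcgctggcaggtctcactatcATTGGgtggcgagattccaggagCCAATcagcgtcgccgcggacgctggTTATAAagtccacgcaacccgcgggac
B2m: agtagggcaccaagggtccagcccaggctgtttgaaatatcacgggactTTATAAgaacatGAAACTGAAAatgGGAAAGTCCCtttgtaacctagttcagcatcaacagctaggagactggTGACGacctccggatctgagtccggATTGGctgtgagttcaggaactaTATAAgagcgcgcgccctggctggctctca
Tap1: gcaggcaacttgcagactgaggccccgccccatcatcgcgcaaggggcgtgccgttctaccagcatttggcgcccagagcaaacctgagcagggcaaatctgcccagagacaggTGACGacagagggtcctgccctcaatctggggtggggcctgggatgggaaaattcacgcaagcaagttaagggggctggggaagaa
In H2-K1, H2-D1 and B2m, TGACG was followed by ATTGG with 20 bases between them. A pair spaced by 15 to 25 bases occurred in 0.435% of 32851 promoter windows of 300 bases (250 before and 50 after the start). Windows of another chromosome, which holds no member, were not in the set searched, here and below. The motif GAANNGAAA, an interferon response element in shape, was present upstream of H2-K1 and H2-D1 and in 7.52% of all windows, and GAAANNGAAA upstream of B2m and in 3.44%. The NF-kappaB consensus was in the windows of the same 3 genes and in 5.81% of all, where its matches on both strands of H2-K1 and H2-D1 overlap. Both strands were searched, and the letters were chosen after the sequences had been seen. Of the other letters searched, CCAAT was in 6 of 8 members' windows and 37.4% of all, TGACG in 5 and 20.8%, TATAA in 4 and 24.9%, and TGANTCA, an AP-1 site in shape, in none of the members' and 7.81% of all. Windows matched 8 members, with Tap2 and Nlrc5 named only, and H2-K1 had 2 windows, which overlap. Over 228 aligned columns the windows of H2-K1 and H2-D1 were 90.4% identical. The reference is C57BL/6J, and the H-2 haplotype of the thymoma line is not given in the sources used here.

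**Figure D1:**
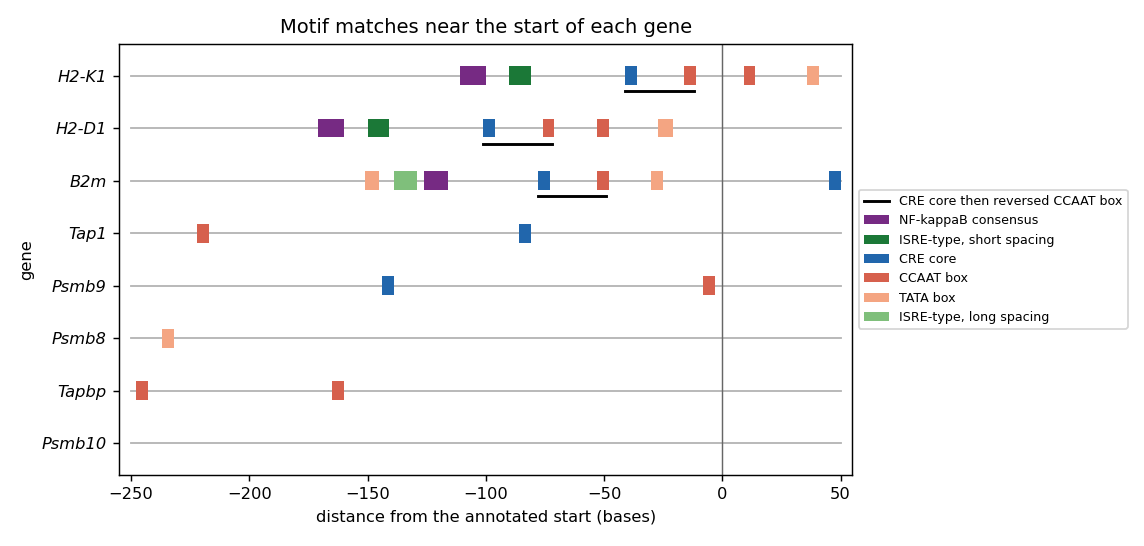
Motif matches in the windows of 8 members, by distance from the annotated start in bases, with a coloured box for each match on either strand and a black line for TGACG followed by ATTGG. H2-K1, H2-D1 and B2m carry the spaced pair with a gap of 20 bases, and Psmb10 has no match.

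Tap1 and Psmb9 are read in opposite directions from starts 226 bases apart, and their windows share 275 bases. Tap1 (chromosome 17, 34187553 to 34197225, plus strand) and Psmb9 (34181988 to 34187764, minus strand) share 212 bases as loci. In the same stretch of chromosome 17 lie Psmb8 (34197721 to 34201454) and Tap2 (34203527 to 34216321). H2-K1 (33977912 to 34000333, minus strand) was assembled into 22422 bases, against 4331 annotated, so its value may hold reads from outside the gene. H2-D1 lies at 35262477 to 35267499 of the same chromosome, B2m at 122147686 to 122153083 of chromosome 2, Psmb10 at 105935728 to 105938392 and Nlrc5 at 94469851 to 94527272 of chromosome 8. The Nlrc5 locus covers 57422 bases, against 92917 annotated, and what this does to its value was not tested. B2m lies wholly inside the Patl2 locus on the opposite strand, which reached at most 0.104 FPKM. The H2-K1 locus shares 1706 bases with a locus without a symbol and 1941 with a locus named Fv1. Tap2 shares 3148 bases with Gm15821 on the opposite strand. What these overlaps add to the values was not tested. The annotated position of Tapbp (33915899 to 33929292) falls inside 1 assembled locus named Rgl2, together with Zbtb22, Gm19412 and Rgl2. That locus had 82.4 and 96.2 FPKM in CONT cells with DMSO and PMA, 73.3 and 110.5 in SP2bKD cells with DMSO and PMA, 84.0 with GFP and 121 with GFP plus EICD. None of these is the level of Tapbp alone.

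The members spread over more than 3 orders of magnitude, with the light chain far above the rest and the transactivator and the inducible proteasome subunits Psmb8 and Psmb9 near the floor. B2m was the highest member in all 6 libraries. It had 335 and 400.1 FPKM in CONT cells with DMSO and PMA, 327 and 413 in SP2bKD cells with DMSO and PMA, 313 with GFP and 339 with GFP plus EICD. Its highest library was 1.32 times its lowest, and both PMA libraries lay above the other 4. H2-K1 had 25.3 and 30.3 FPKM in CONT cells, 43.0 and 44.8 in SP2bKD cells, 44.7 with GFP and 58.0 with GFP plus EICD. Every SP2bKD library was above both CONT libraries for this heavy chain. H2-D1 had 30.1 and 35.8 FPKM in CONT cells, 30.8 and 33.7 in SP2bKD cells, 43.7 with GFP and 57.5 with GFP plus EICD. For H2-D1 the lines overlapped, and the GFP-sorted libraries were the highest. The order of H2-K1 and H2-D1 held in 4 of 6 libraries and their ranges overlap, whereas the ranges of B2m, of H2-K1 with H2-D1 and of Psmb10 do not touch each other.

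**Figure D2:**
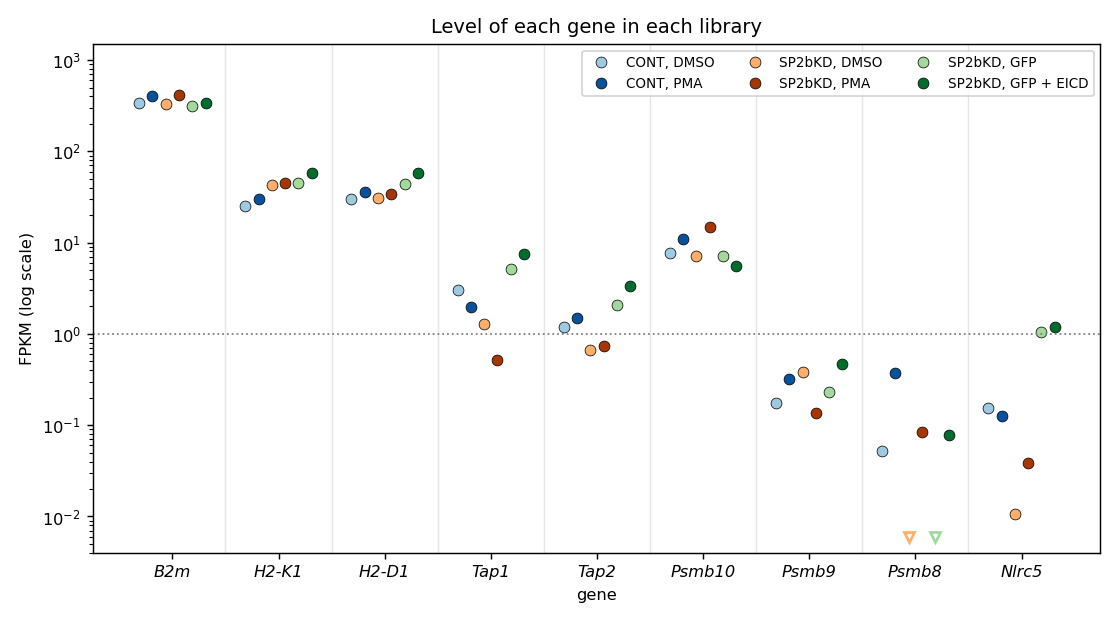
FPKM on a log scale of 9 members (x axis) in the 6 libraries (colours, 1 point each), with open triangles for libraries where a gene was listed at 0 and a dotted line at 1 FPKM. B2m lies between 313 and 413 in all libraries, while Tap1 spans 0.517 to 7.44 and Nlrc5 0.0107 to 1.19.

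The transporter genes were below both heavy chains in all 6 libraries. Tap1 had 2.99 and 1.98 FPKM in CONT cells with DMSO and PMA, 1.30 and 0.517 in SP2bKD cells with DMSO and PMA, 5.13 with GFP and 7.44 with GFP plus EICD. Its highest library was 14.4 times its lowest, and the sorted libraries stood above the other 4. Tap2 had 1.19 and 1.48 FPKM in CONT cells, 0.669 and 0.733 in SP2bKD cells, 2.09 with GFP and 3.33 with GFP plus EICD. It had the same order of culture sets as Tap1, with SP2bKD below CONT and both below the sorted cells, but over a narrower range of 4.98 times.

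NLRC5 acts with the RFX, CREB/ATF and NF-Y proteins at class I promoters and switches class I genes on. An RFX site was not among the motifs searched above. Nlrc5 had 0.156 and 0.126 FPKM in CONT cells with DMSO and PMA, 0.0107 and 0.0385 in SP2bKD cells with DMSO and PMA, 1.06 with GFP and 1.19 with GFP plus EICD. In estimated fragments these were 31.6 and 27.6, then 2.1 and 8.52, then 200.2 and 237. Only the sorted libraries had 1 FPKM or more. The 8 partners of NLRC5 (Rfx5, Rfxap, Rfxank, Creb1, Atf1, Nfya, Nfyb and Nfyc) were at 4.58 to 54.7 FPKM, and none was called in any of the 6 comparisons, where 0.810 to 6.40% of all loci were called in a direction. Nfya, the highest on average, was at 30.9 to 54.7 FPKM and Nfyc at 33.8 to 45.7.

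Within a library, the ratio of the heavy chains fell into 3 levels that followed the culture sets. H2-K1 over H2-D1 was 0.839 (95% counting interval 0.777 to 0.905) and 0.845 (0.790 to 0.905) in CONT cells with DMSO and PMA. It was 1.4 (1.30 to 1.49) and 1.33 (1.25 to 1.41) in SP2bKD cells with DMSO and PMA. In the sorted cells it was 1.02 (0.960 to 1.09) with GFP and 1.01 (0.957 to 1.06) with GFP plus EICD. The intervals of a pair overlapped, and those of different pairs did not. Such a ratio does not change with library scaling, but it can take up reads of similar class I genes, whose part was not tested. Of the 100-base windows of the annotated H2-D1 transcript, 4.64% were shared with another gene, and of H2-K1 0%. The H2-K1 value comes from the longer assembled locus, so that share may not cover all its reads. The ratio of Tap1 to Tap2 was lower with PMA than with DMSO in each line. It was 2.52 (2.01 to 3.21) and 1.34 (1.07 to 1.68) in CONT cells, 1.94 (1.4 to 2.75) and 0.705 (0.478 to 1.04) in SP2bKD cells, 2.45 (2.04 to 2.93) with GFP and 2.23 (1.94 to 2.58) with GFP plus EICD. Of the 100-base windows, 3.96% of Tap1 and 5.35% of Tap2 were shared with another gene. B2m was in excess of the summed heavy chains H2-K1 and H2-D1 throughout, by 6.04 and 6.05 times in CONT cells, 4.43 and 5.26 times in SP2bKD cells, 3.54 times with GFP and 2.93 times with GFP plus EICD.

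**Figure D3:**
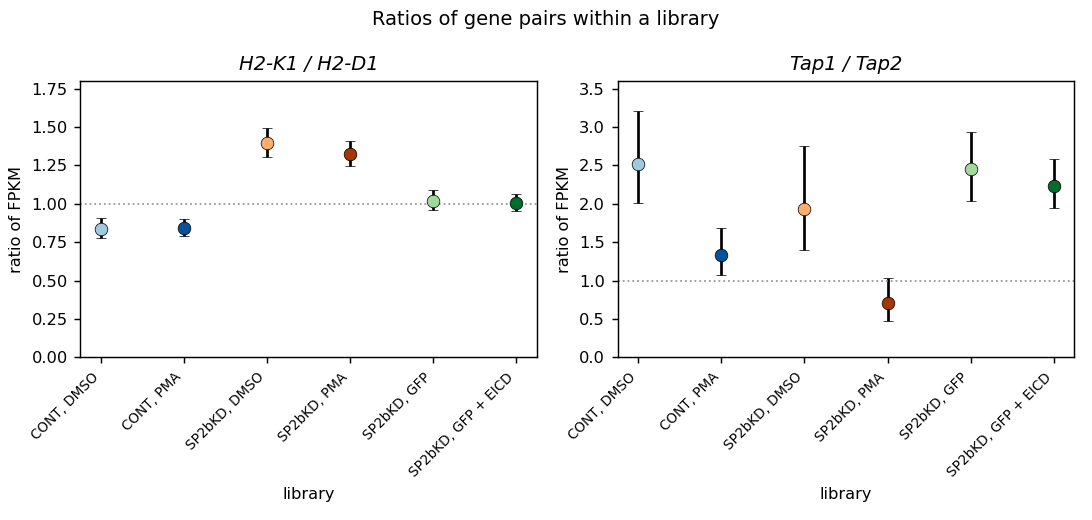
Ratio of FPKM of H2-K1 to H2-D1 (left) and of Tap1 to Tap2 (right) in each library (1 point per library), with 95% counting intervals as bars and a dotted line at 1. The left ratio is 0.839 and 0.845 in CONT cells, 1.4 and 1.33 in SP2bKD cells and 1.02 and 1.01 in the sorted cells, and the right ratio is lower with PMA in each line.

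PMA induces shedding of epithin/PRSS14 and so serves in the design to raise EICD, and SPPL2b knockdown to lower it. In CONT cells no member was called: 6 passed the minimum, and 0 were more than 2-fold higher or lower, against 4.44% of all loci higher and 5.00% lower. The median log2 ratio of these members was 0.26 and that of all loci -0.12. B2m, H2-K1 and H2-D1 were 1.20-fold (1.16 to 1.23), 1.20-fold (1.11 to 1.30) and 1.19-fold (1.12 to 1.27) higher with PMA, but scaling the libraries to the same FPKM sum brought their log2 ratios to 0.0067, 0.011 and -0.00063. Psmb10 was 1.43-fold higher (1.23 to 1.68), and Tap1 was lower, at a ratio of 0.663 (0.540 to 0.809). Of the marker genes, Cldn4 (125 and 553 FPKM with DMSO and PMA) and Krt18 (71.6 and 171) were called higher and Rag1 (3.50 and 1.73) lower, and their part in these values was not tested. Fewer cells with a transcript and less transcript in each cell cannot be told apart in such bulk RNA.

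In SP2bKD cells 5 members passed the minimum, 1 was called higher and 1 lower, against 3.83% and 6.40% of all loci. Psmb10 was 2.07-fold higher with PMA (1.78 to 2.42) and Tap1 2.51-fold lower, at a ratio of 0.399 (0.276 to 0.577), where Tap1 passed the minimum only through the DMSO library. Cldn4 was the 1 marker called, at 104 and 320 FPKM. B2m was 1.26-fold higher (1.23 to 1.30), while the ratios of H2-K1, 1.04 (0.979 to 1.11), and H2-D1, 1.10 (1.03 to 1.17), were near 1. The median was 0.13 on the log2 scale, against -0.15 for all loci. The PMA log2 ratio of Tap1 was 0.72 higher in CONT than in SP2bKD cells and that of Psmb10 0.53 lower (-0.53), without a test of either difference.

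The NF-kappaB genes among the listed regulators were higher with PMA in both lines. Relb was at 4.34 and 22.1 FPKM in CONT cells with DMSO and PMA and at 3.93 and 23.7 in SP2bKD cells, Nfkb2 at 31.0 and 94.5 and at 38.2 and 120.1, and Nfkb1 at 45.5 and 101 and at 43.1 and 100.0. Stat2, which carries the type I interferon signal, was lower, at 9.73 and 3.42 and at 15.9 and 7.10 FPKM. In CONT cells 19 of 22 regulators listed passed, 3 called higher and 1 lower, beside 4.44% and 5.00% of all loci. In SP2bKD cells 19 passed, 5 called higher and 1 lower, beside 3.83% and 6.40%, the further ones being Ifngr2 (13.9 and 30.2 FPKM) and Socs1 (0.796 and 2.65), which passed only through the PMA library. Between the lines, Stat2 was the 1 regulator called, higher in SP2bKD cells with PMA. In that comparison 19 passed, and 2.56% of all loci were called higher. Whether the PMA effects differ was not tested. The NF-kappaB consensus shown above is a letter match, and whether NF-kappaB acted on B2m, H2-K1 and H2-D1 was not tested.

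With DMSO, 6 members passed the minimum between the lines, and Tap1 was called lower in the SP2bKD library. That is 0 members higher and 1 lower, where 3.92% of all loci were called higher and 3.13% lower. Tap1 was 2.31-fold lower, at a ratio of 0.433 (0.340 to 0.551), and Tap2 1.77-fold lower, at 0.564 (0.402 to 0.779), having passed the minimum only through the CONT library. H2-K1 was 1.7-fold higher (1.58 to 1.83), and H2-D1, B2m and Psmb10 had log2 ratios of 0.03, -0.03 and -0.12. With PMA, 6 passed and 2 were called, both lower, against 2.56% of loci higher and 3.27% lower. Tap1 was 3.84-fold lower, at a ratio of 0.261 (0.185 to 0.368), and Tap2 2.02-fold lower, at 0.496 (0.372 to 0.663), just past the threshold. Both were under 1 FPKM in the SP2bKD library and passed only through the CONT library, where they were high. H2-K1 was 1.48-fold higher (1.38 to 1.58) and Psmb10 1.33-fold higher (1.17 to 1.52). Nlrc5 was below the minimum in all 4 libraries, at ratios of SP2bKD to CONT cells of 0.0689 (0.00754 to 0.254) with DMSO and 0.305 (0.132 to 0.693) with PMA. Higher in SP2bKD than in CONT cells were the markers Krt8 (311 against 80.1 FPKM under DMSO, 403 against 136 under PMA) and Vim (1.04 against 0.292 and 1.64 against 0.365), all past 2-fold, and their part was not tested. The members' medians were -0.08 and -0.02 beside 0.05 and 0.02 for all loci. Scaling the libraries to the same FPKM sum moves the medians of all loci to 1.03 and 1.28, and then Tap2 has a positive log2 ratio in both comparisons and Tap1, at -0.24 and -0.69, is no longer called in either; 10 loci make up 85.6 to 94.2% of that sum.

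**Figure D4:**
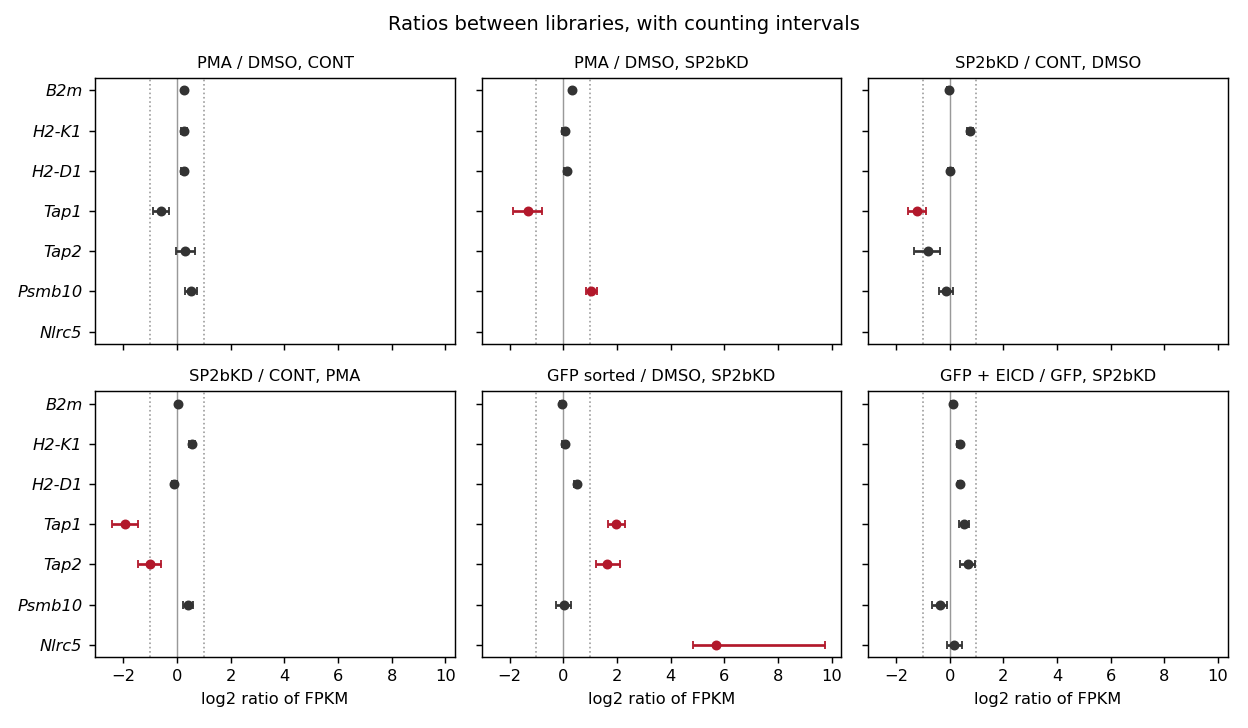
Log2 ratio of FPKM for the members that passed the minimum in each of 6 comparisons, with 95% counting intervals as bars, a grey line at 0, dotted lines at the 2-fold threshold and red for members past it. Tap1 is red in 4 panels, Tap2 in 2, Psmb10 and Nlrc5 in 1 each.

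The sorted GFP library of SP2bKD cells stood apart from the DMSO library of the same line at the transporter genes and Nlrc5. Of 7 members that passed, 3 were called higher and 0 lower, beside 4.01% and 5.14% of all loci. Tap1 was 3.96-fold higher (3.15 to 4.97) and Tap2 3.13-fold higher (2.34 to 4.32), a call that ends at a log2 ratio of 0.89 with 1 FPKM added to both libraries. Nlrc5 was 98.9-fold higher by FPKM, with an interval of 28.3 to 861 since the lower library held about 2.1 fragments of it. With 1 FPKM added, its log2 ratio goes from 5.69 to 1.03. Nlrc5 and Tap2 passed the minimum only through the GFP library, where they were high, so these calls follow in part from the filter. H2-D1 was 1.42-fold higher (1.33 to 1.51), and H2-K1 (1.04), Psmb10 (1.01) and B2m (0.957) were near 1. The median was 0.51 on the log2 scale, beside -0.08 for all loci, and 0.057 with no minimum or with a minimum of 10 FPKM. In the same comparison the markers Krt5 and Krt14 were called higher and Krt8 and Csf1r lower, and their part was not tested. Relb was at 8.69 FPKM with GFP against 3.93, Socs3 at 13.8 against 3.19 and Irf2bp2 at 31.6 against 14.8, while Stat2 was at 6.07 against 15.9. The SP2bKD library with DMSO serves as the reference here and in the comparisons of PMA and of the lines, so these share its error.

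EICD was added to see which genes it can change without cleavage. In this comparison 7 members passed and 0 were called higher or lower, where 3.93% of all loci were called higher and 0.810% lower. Of these members 6 had higher values with EICD, beside 58.3% of all loci, and Psmb10 had a lower one. The median was 0.38 on the log2 scale beside 0.07 for all loci. Tap2 was 1.59-fold higher (1.31 to 1.92), Tap1 1.45-fold (1.27 to 1.66), H2-D1 1.32-fold (1.25 to 1.39) and H2-K1 1.30-fold (1.22 to 1.38). B2m was 1.08-fold higher (1.05 to 1.12) and Nlrc5 1.12-fold (0.929 to 1.37), both turning below 1 when libraries were scaled to the same FPKM sum. That scaling also lowered the log2 ratios of H2-K1 and H2-D1, from 0.377 and 0.395 to 0.195 and 0.213. The median of all loci was then -0.11. Psmb10 had a ratio of 0.781 (0.640 to 0.947). Of the marker genes, Krt8 was called lower (143 FPKM with GFP and 70.2 with EICD). Of the 8 thymic epithelial markers 7 were lower and 1 higher, where 58.3% of all loci were higher. The markers' part in these values was not tested. With 1 library a side, differences of this size cannot be set against the spread between cultures.

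RNA of the standard catalytic proteasome subunits exceeded that of the inducible ones in every library. The standard subunits Psmb5, Psmb6 and Psmb7 are replaced by Psmb8, Psmb9 and Psmb10 in the immunoproteasome, which changes the peptides made. Psmb10 had 7.68 and 11.0 FPKM in CONT cells with DMSO and PMA, 7.06 and 14.6 in SP2bKD cells with DMSO and PMA, 7.13 with GFP and 5.57 with GFP plus EICD. It was the only inducible subunit above 1 FPKM, and the PMA libraries were its highest. Psmb7 exceeded it 24.4 and 17.6 times in CONT cells, 28.1 and 11.9 times in SP2bKD cells, 23.9 times with GFP and 24.9 times with GFP plus EICD. Psmb9 had 0.177 and 0.317 FPKM in CONT cells, 0.387 and 0.136 in SP2bKD cells, 0.231 with GFP and 0.467 with GFP plus EICD, from 5.36 to 16.5 estimated fragments. Psmb6 was 240.5 to 1028 times higher. Psmb8 had 0.0528 and 0.370 FPKM in CONT cells and 0.0839 in SP2bKD cells with PMA and 0.0773 with GFP plus EICD, and was listed at 0 in the DMSO and GFP libraries of SP2bKD cells. In CONT cells it was 7.02-fold higher with PMA, with an interval of 1.87 to 70.3 from about 2.30 and 17.4 fragments. Psmb5 was at 80.6 to 104 FPKM. Psmb9 shares 9.02% of its 100-base windows with Tap1, so part of its few fragments may belong to the other strand's gene.

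**Figure D5:**
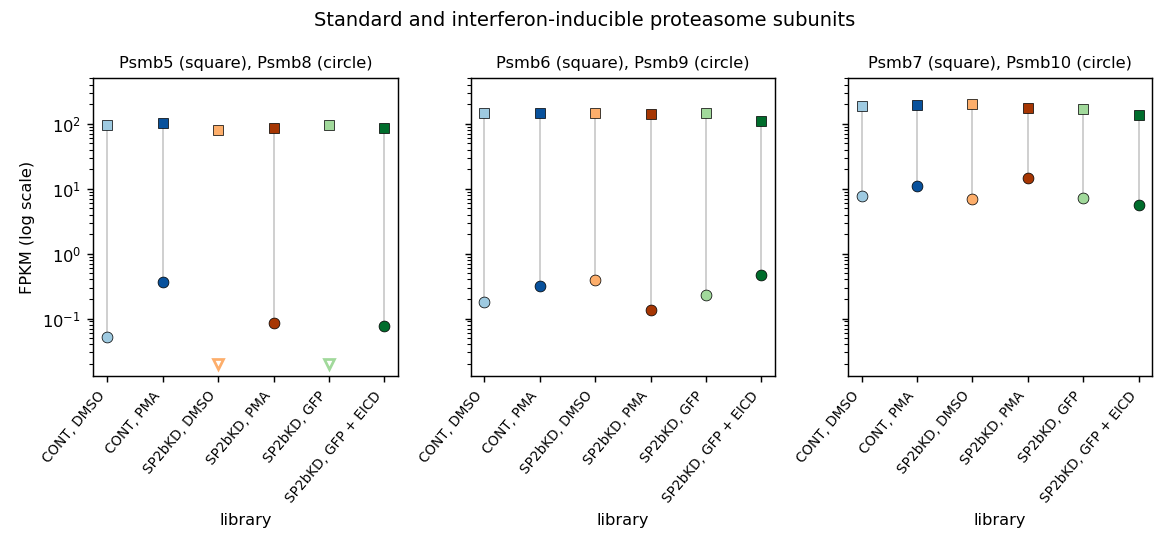
FPKM on a log scale of the standard subunit (squares) and the inducible subunit that replaces it (circles) in the 6 libraries, with open triangles where a gene was listed at 0. Psmb7 exceeds Psmb10 by 11.9 to 28.1 times, and Psmb8 and Psmb9 lie below 1 FPKM throughout.

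With EICD the 3 standard subunits were all lower than with GFP, at a median log2 ratio of -0.30. Of 14 further core, PA28 and assembly genes found of 15 listed, 13 were lower and 1 higher, where 58.3% of all loci were higher. The median of these 14 was -0.47 beside 0.07 for all loci. None passed 2-fold, where 3.93% of all loci were called higher and 0.810% lower. Pomp, an assembly factor, was at 326 FPKM with GFP and 193 with EICD, and Psma1 at 219 and 158. Psme1, a PA28 subunit, was the exception, at 9.70 and 11.1. The 8 loading and trimming genes were at 7.32 to 603 FPKM and none was called in any comparison, where 0.810 to 6.40% of all loci were called in a direction. Hspa5 and Calr, chaperones of the endoplasmic reticulum, had 368 and 390 FPKM with GFP and 289 and 259 with EICD.

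Of 20 further class I genes listed, 16 had a row. H2-T23, which encodes Qa-1, was the highest with 12.9 and 14.6 FPKM in CONT cells with DMSO and PMA, 10.7 and 10.9 in SP2bKD cells, 20.2 with GFP and 26.4 with GFP plus EICD. Like H2-D1 it was highest in the sorted cells. H2-T22 was at 6.07 to 8.37 FPKM. Mr1, which presents vitamin B metabolites, was lower with PMA in both lines, at 1.23 and 0.413 FPKM in CONT cells and 1.48 and 0.506 in SP2bKD cells, having passed only through the DMSO libraries. It was the 1 gene called of 6 that passed in each line, where 5.00% and 6.40% of all loci were called lower. H2-M3, which binds formylated peptides, was at 1.55 and 2.18 FPKM in CONT cells and 3.88 and 5.18 in SP2bKD cells, and was called higher in the SP2bKD line under either treatment. It was the 1 called of 6 that passed with DMSO and of 5 with PMA, beside 3.92% and 2.56% of all loci higher. H2-Bl was at 0.0928 FPKM with GFP and 1.16 with EICD, passing only through the latter. It was the 1 called of 7 that passed, beside 3.93% of all loci called higher. The classical and other class I genes carry similar stretches, and reads may be split among them.

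None of the 6 interferon genes listed reached 1 FPKM. Each had a row: Ifng, Ifnl2 and Ifnl3 were listed at 0 in all 6 libraries, and Ifnb1, Ifnk and Ifne reached at most 0.0594, 0.12 and 0.151 FPKM. The interferon factor Irf1 was at 30.5 to 40.7 FPKM, and the receptor chains Ifngr1 and Ifnar1 at 15.1 to 16.3 and 16.7 to 23.1. In the comparison of EICD with GFP 19 of 20 regulators were higher, beside 58.3% of all loci. Called were 1 higher (Relb, 8.69 and 22.5 FPKM) and 1 lower (Socs1, 1.23 and 0.439), beside 3.93% and 0.810% of all loci. Socs1 passed only through the GFP library, where it was high. The regulators' median log2 ratio was 0.33, beside 0.07 for all loci. The 6 genes of routes known to hold class I expression down were at 14.8 to 83.3 FPKM. Suz12 was at 70.0 to 83.3 and Ezh2, the methyltransferase of the same Polycomb complex, at 48.9 to 81.1. Of the 6, Irf2bp2 alone was called, in the sorted GFP library, where 4.01% of all loci were called higher.

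For 3 members the genes with the nearest profile over the 6 libraries were sought among 7340 genes with a mean of 10 FPKM or more. The measure was the root mean square difference of centred log2 FPKM. For H2-K1 they were Psat1 (0.06), Sde2 (0.08) and Smyd3 (0.10), each highest with GFP plus EICD and lowest in CONT cells with DMSO. For Nlrc5 they were Egr1 (0.77), Arhgap22 (1.17) and Klf4 (1.18). Egr1 was at 10.3 and 8.63 FPKM in CONT cells, 5.02 and 9.14 in SP2bKD cells, 88.8 with GFP and 171 with GFP plus EICD. For Psmb8 they were Nppb (0.84), Arid5a (0.87) and Slpi (1.00). Matches to a gene with so few fragments are loose. That holds also for Nlrc5, with about 2.1 and 8.52 fragments in SP2bKD cells with DMSO and PMA.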

How the data were processed

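RNA from 6 libraries, 1 per condition, was sequenced in pairs of reads. The authors aligned reads to GRCm38 and deposited a table of FPKM per locus for each library; the submitters' processing notes name TopHat2 2.1.1, Cufflinks and Cuffdiff 2.1.1, and STAR 2.4.0b without a role. FPKM depends on the assembled gene models, so a locus that joins neighbours holds the reads of both. Of the loci, 8948 are annotated genes, 12836 annotated genes with new isoforms and 3217 new.

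Log2 ratios (pandas 2.3.3, SciPy 1.17.1 and NumPy 2.4.6 under Python 3.11.15) were formed after adding 0.01 FPKM to both libraries. For EICD, 0.01 went to the EICD library alone and loci under 0.01 FPKM with GFP were left out. Folds and intervals are of FPKM with nothing added. A call needed 1 FPKM in at least 1 library and more than 2-fold. Depth came from the low FPKM of genes with a single transcript over 2500 bases, and fragments per gene from the longest principal transcript. Intervals are 95% Clopper-Pearson intervals of the share of fragments. Counting and depth steps were tested on simulated data. Plots used matplotlib 3.10.9.

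The members, lists and markers were chosen with earlier results of these data known. Named genes were all members, the 3 nearest profiles of H2-K1, Psmb8 and Nlrc5, and from the gene lists (marker lists apart) the 2 highest genes and those past 2-fold. The remaining list genes named and the marker genes illustrate a range, an exception or a marker that moved and were chosen after their values were seen. Alternatives were 0.1 or 1 added, other scalings, a minimum of 10 or none, and summed rows.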

Additional observations from a re-analysis of the deposited data

Results flagged for a closer look

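The PMA log2 ratio had opposite signs in CONT and SP2bKD cells for 2 members, and the difference was not tested. For Psmb9 it was 0.81 in CONT cells and -1.45 in SP2bKD cells, a difference of 2.25, with 6.40 and 12.4 estimated fragments in CONT cells and 13.5 and 5.36 in SP2bKD cells. For Nlrc5 it was -0.28 and 1.23, a difference of -1.51, with 31.6 and 27.6 fragments in CONT cells and 2.1 and 8.52 in SP2bKD cells. Both genes were under 1 FPKM in these 4 libraries.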

How the results depend on the processing

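No paired analysis was possible because each condition has 1 library. The 8 alternatives for each comparison were 0.1 or 1 added to both libraries, the same upper quartile, the same FPKM sum, the median of ratios, a minimum of 10 FPKM or none, and summed rows, with further additions for EICD. Of 100 alternative counts and medians, 77 stayed within 1.5 times or within the counting interval and 23 moved. In CONT cells PMA gave a median of 0.0090 with the same FPKM sum, and 1 call (Psmb8) with no minimum. In SP2bKD cells PMA gave 0 calls with 1 added, 1 (Psmb10) at a minimum of 10 and 5 with no minimum, and medians of 0.25 by the median of ratios and 0.23 at a minimum of 10. Between the lines with DMSO, calls were 0 with 1 added, 0 at a minimum of 10 and 4 with no minimum, and the median was 0.89 with the same FPKM sum, where the 1 call became H2-K1 higher in place of Tap1 lower. With PMA, calls were 0 with 1 added, 1 (Tap1) with 0.1 added, 4 (H2-K1, H2-D1, B2m and Psmb10, all higher) with the same FPKM sum, 0 at a minimum of 10 and 5 with no minimum, and medians were 1.23 with the same sum, 0.23 at a minimum of 10 and -1.0 with no minimum. Under the same FPKM sum Tap2 turned to 0.23. For the sorted GFP library, a minimum of 10 gave 0 calls and a median of 0.057, and no minimum also 0.057, while 1 added left 2 calls (Tap1 and Nlrc5). EICD gave 1 call (Psmb9, higher) with no minimum. A minimum of 10 removes Tap1, Tap2 and Nlrc5, and Psmb10 between the lines with DMSO and in the GFP and EICD comparisons, and no minimum adds the genes with few fragments. Counting limits Psmb8, Psmb9 and, in SP2bKD cells, Nlrc5. The median of all loci itself moved from -0.12 to -0.37 in CONT cells with PMA and from 0.07 to -0.11 with EICD under the same FPKM sum, and from -0.15 to -0.03 in SP2bKD cells with PMA by the median of ratios.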

Other observations

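Class II genes were low. H2-Aa and H2-Ab1 were listed at 0 in all 6 libraries and the transactivator Ciita reached at most 0.0620 FPKM, while H2-DMa and H2-DMb1, which edit class II peptides, were at 2.20 to 3.23 and 1.20 to 1.91 FPKM. Cd74, the invariant chain, was at 0.192 FPKM with GFP and 1.38 with EICD. H2-Eb1 was at 0.883 and 1.47, against 0.0620 in SP2bKD cells with DMSO. In the EICD comparison 4 of 7 class II genes passed the minimum, all 4 higher, beside 58.3% of all loci. Cd74 was past 2-fold, where 3.93% of all loci were called higher. However, Cd74 and H2-Eb1 passed only through the EICD library, where they were high.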
